A study of Aspergillus oryzae with 8 samples.

Results

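Transcripts of 7 proteasome subunit genes of Aspergillus oryzae were followed in 8 RNA-seq libraries. The 7 genes were taken by locus tag from 11880 genes listed in the deposited files. They are pre9 (AO090001000574) and pre8 (AO090005000451), pre3 (AO090005000157), pre1 (AO090023000824) and pre4 (AO090003000016), rpt1 (AO090020000414) and rpnL (AO090005001381), with symbols from RefSeq. RefSeq symbols place 9 further genes in the same complex, 16 in all, and these serve as the surrounding pathway. All 16 passed the filter on low counts.

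The organism is the koji mould of food fermentation, here strain RIB40, and mycelium was grown in a glucose and nitrate medium. 4 conditions had 2 libraries each. Solid control was mycelium that grew on a cellophane sheet over agar for 40 h at 30 °C, and liquid control was mycelium shaken in flasks for the same time at the same temperature. In solid DTT the cellophane with its mycelium was moved to filter paper soaked with medium that held 20 mmol/L dithiothreitol (DTT). In liquid DTT the same concentration was reached by adding DTT to the flask. DTT reduces disulfide bonds, on which the folding of secreted proteins in the endoplasmic reticulum (ER) depends. The labels give no exposure time, and they describe no transfer to filter paper for the solid control, so transfer and DTT cannot be told apart in solid culture. Nothing in the labels says that both libraries of a condition came from separate cultures, and p-values therefore measure only the spread between libraries, which may be technical. Replicate 1 always had inserts of 500 bp and is labelled as polyA RNA, while replicate 2 had inserts of 200 bp and is labelled as total RNA, although the same oligo-dT selection is described for both.

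Each library held 5880753 to 8912897 reads on genes, of which 8.2% to 37.6% were rRNA. The ER chaperone gene bipA (AO090003000257) marked the treatment, as it rose by a log2 fold change of 3.85 ± 0.56 (SE) when averaged over both cultures (edgeR, Benjamini-Hochberg adjusted p = 0.00198). Fold changes below are log2 values ± SE from edgeR's quasi-likelihood fit over all 8 libraries, levels are CPM (read counts scaled to library size, with TMM factors), and a gene is said to rise or fall where the adjusted p, over all tested genes, was below 0.05.

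The proteasome is the large protease that degrades ubiquitin-tagged proteins in the cytosol and nucleus, including misfolded proteins that are pulled back out of the ER. Its barrel-shaped core is a stack of alpha and beta rings, with the cutting sites on the inner face of certain beta subunits. A regulatory particle caps the barrel, and in it a ring of ATPases unfolds the substrate and feeds it into the core. The roles named here are those of the budding yeast proteins of the same name. In yeast, Pre8 and Pre9 are alpha subunits, Pre3 is the beta subunit with the caspase-like cutting site, Pre1 and Pre4 are beta subunits without a site of their own, and Rpt1 is an ATPase of the base. The prefix of rpnL stands for a non-ATPase subunit of the regulatory particle.

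The coding lengths recovered from the deposited coverage fractions ran from 612 bp for pre1 to 1320 bp for rpt1. Reads covered between 94.7% and 100% of each of the 7 genes in every library, and a gene had between 209 and 2946 reads. None of the 7 overlapped another gene in the RefSeq table.

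The alpha subunit genes pre9 and pre8 were level in solid culture and lowest in liquid culture with DTT. pre9 stood at 119.5 and 115 CPM in the solid control (replicates 1 and 2) and at 119 and 113 CPM in solid DTT. In liquid culture it stood at 121 and 89.8 CPM without DTT and at 65.7 and 74.0 CPM with it. The 4 solid libraries thus lay close together, and both liquid DTT libraries lay below every other one. pre8 stood at 87.0 and 89.8 CPM in the solid control, 82.1 and 90.4 CPM in solid DTT, 91.2 and 105 CPM in the liquid control and 65.0 and 57.8 CPM in liquid DTT. Here too the liquid DTT pair was the lowest of the 8. In liquid culture, 31.5% of all tested genes had both DTT libraries below both controls. The share of genes with both liquid DTT libraries below every other library was not determined. In liquid culture the log2 fold change under DTT was -0.68 ± 0.36 for pre8 and -0.59 ± 0.38 for pre9. Neither passed the test (edgeR, Benjamini-Hochberg adjusted p = 0.212 and 0.292), and the 95% intervals ran from -1.50 to 0.14 and from -1.44 to 0.26. In solid culture the values were -0.04 ± 0.36 and -0.01 ± 0.38. The alpha subunit genes outside the 7 did not share this separation in liquid culture. pre5 (AO090701000060) stood at 80.7 and 88.2 CPM in the liquid control and at 74.8 and 96.0 CPM in liquid DTT. pup2 (AO090026000504) stood at 110.5 and 80.7 against 70.0 and 104 CPM, and pre6 (AO090102000273) at 80.8 and 95.6 against 45.2 and 84.6 CPM. The groups overlapped for each. Within replicates 1 and 2, however, pre6 was lower with DTT, at log2 ratios of -0.84 and -0.18, beside -0.87 and -0.28 for pre9. For pre5 and pup2 the sign differed between the replicates. The difference between the alpha subunit genes was not tested.

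Among the beta subunit genes, pre4 held nearly the same level throughout. It stood at 97.0 and 101 CPM in the solid control, 106 and 97.0 CPM in solid DTT, 87.4 and 88.0 CPM in the liquid control and 80.2 and 99.6 CPM in liquid DTT. The highest library was 1.32 times the lowest, and the conditions overlapped except that the libraries of both solid conditions lay above the liquid controls. Its log2 fold change under DTT was 0.04 ± 0.37 in both cultures, and over both cultures the 95% interval ran from -0.55 to 0.62.

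pre3, the gene of the catalytic beta subunit, varied most among the core genes. It stood at 101 and 108 CPM in the solid control, 104 and 139 CPM in solid DTT, 95.3 and 85.5 CPM in the liquid control and 47.2 and 94.2 CPM in liquid DTT. All 4 solid libraries lay above all 4 liquid ones, which was the case for pre3 alone among the 16 proteasome genes. Of all tested genes, 5.95% were higher in solid culture without overlap in this way. The value in liquid DTT rested on replicate 1, which was the lowest of the 8, while replicate 2 lay within the liquid controls. Its log2 fold change under DTT was 0.22 ± 0.44 in solid and -0.35 ± 0.44 in liquid culture. Within inserts of 500 bp the liquid value was -1.01, and within inserts of 200 bp it was 0.14.

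pre1 had the highest level per length of the 7. It stood at 195 and 127 CPM in the solid control, 227 and 179 CPM in solid DTT, 189 and 133 CPM in the liquid control and 128 and 154 CPM in liquid DTT. In 3 of 4 conditions the library with the longer inserts was the higher one. DTT and control libraries overlapped in both cultures, and with DTT both solid libraries lay above both liquid ones. Its log2 fold change under DTT was 0.33 ± 0.44 in solid and -0.19 ± 0.44 in liquid culture.

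The regulatory particle gave the largest value. The ATPase gene rpt1 stood at 113 and 142 CPM in the solid control and at 185 and 263 CPM in solid DTT. In liquid culture it stood at 123 and 140 CPM without DTT and at 203 and 311 CPM with it. All 4 DTT libraries lay above all 4 controls, as was the case, upwards, for 12.2% of tested genes. The condition means were 128 ± 21.0 and 224 ± 55.2 CPM (SD, n = 2) in solid culture and 131 ± 11.5 and 257 ± 76.5 CPM in liquid culture. The log2 fold change was 0.81 ± 0.45 in solid and 0.97 ± 0.45 in liquid culture, and neither passed the test (edgeR, Benjamini-Hochberg adjusted p = 0.27 and 0.155).

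Averaged over both cultures, rpt1 stood at 0.89 ± 0.32 (95% interval 0.17 to 1.61), which is a 1.85-fold higher level. This missed the threshold, with a Benjamini-Hochberg adjusted p of 0.0575 from edgeR. The replicate number, which coincides with the insert size and the labelled RNA type, was also used as a block. With it the value was 0.87 ± 0.23 and the adjusted p was 0.0178 (edgeR, Benjamini-Hochberg), which passed. Within inserts of 500 bp the averaged log2 ratio was 0.72, and within inserts of 200 bp it was 1.02. With DESeq2 (Wald test, Benjamini-Hochberg) the adjusted p was 0.0161. Leaving out 1 library at a time gave 0.77 to 1.02, and of these only the value without liquid DTT replicate 1, 1.02, passed (edgeR, adjusted p = 0.046).

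rpnL stood at 94.9 and 97.2 CPM in the solid control, 133 and 98.2 CPM in solid DTT, 120 and 78.5 CPM in the liquid control and 89.0 and 92.2 CPM in liquid DTT. Both solid DTT libraries lay above both solid controls, one of them by a small margin, and in liquid culture the groups overlapped. Its log2 fold change was 0.27 ± 0.40 in solid and -0.13 ± 0.40 in liquid culture.

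**Figure D1:**
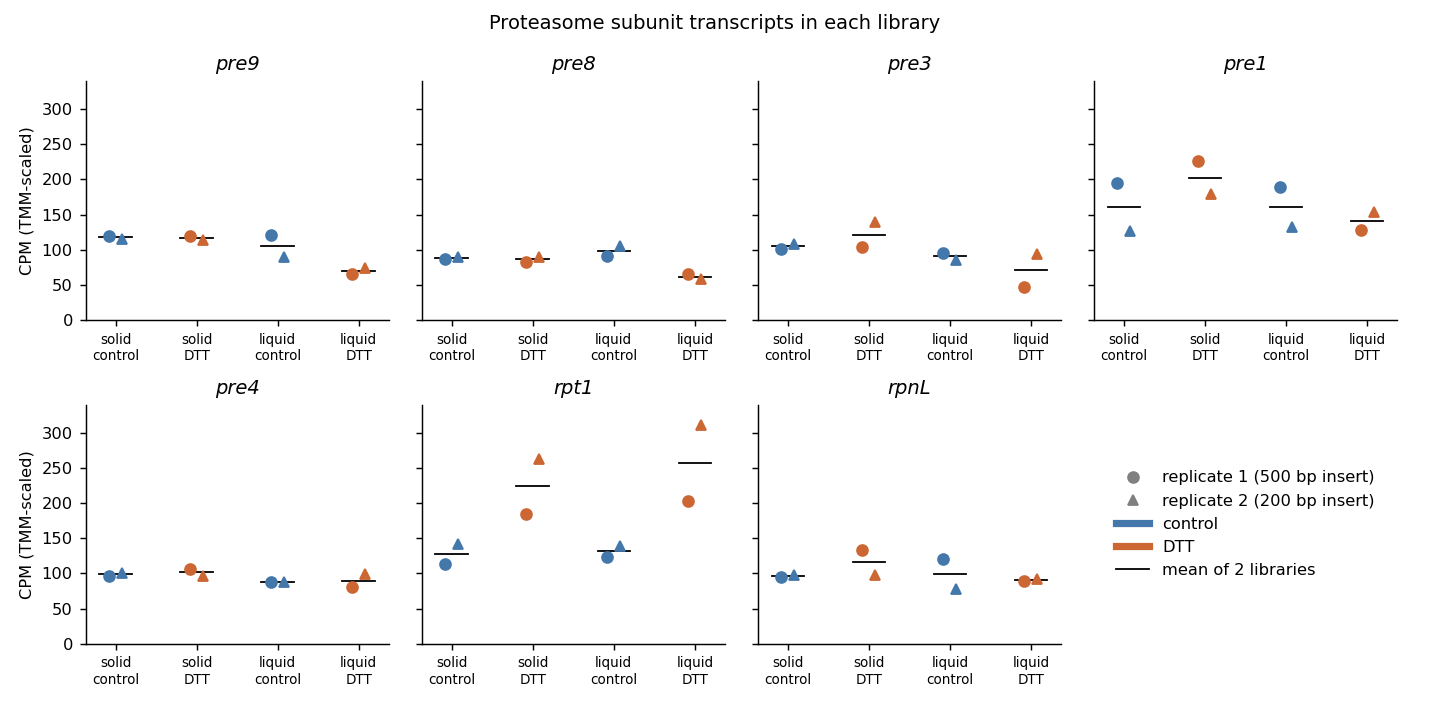
TMM-scaled CPM (vertical axis, from 0) of the 7 subunit genes in the 4 conditions, with circles for replicate 1, triangles for replicate 2 and bars for the mean of 2 libraries. All 4 DTT libraries of rpt1 lie at 185 CPM or above and its controls at 142 CPM or below, while pre4 stays between 80.2 and 106 CPM.

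In solid culture none of the 7 genes was called under DTT, where 9.3% of all 9438 tested genes were (edgeR, Benjamini-Hochberg adjusted p under 0.05). In liquid culture none was called where 20% of tested genes were, and for the mean of both cultures none was called where 33.2% were. At an unadjusted p under 0.05, the counts of the 7 were 0 in solid culture, 0 in liquid culture and 1 (rpt1) for the mean. Of all 9438 tested genes, 2647, 3416 and 4288 were under it in the same order. DESeq2 called 0, 0 and 1 of the 7 (rpt1), beside 1672, 2593 and 3582 of all 9438 tested genes. Leaving out 1 solid library lowered the number of all genes called in solid culture from 878 to 6 and 23 (without solid control replicate 1 or 2) and to 167 and 85 (without solid DTT replicate 1 or 2). In liquid culture it fell from 1885 to 614 and 732 without liquid control replicate 1 or 2, and to 901 without liquid DTT replicate 1. The replicate block raised the counts to 1897 and 2984, that is 20.1% and 31.6% of tested genes, again with 0 of the 7, and for the mean it called 44.1% and 1 of the 7 (rpt1). In solid culture both DTT libraries lay above both controls for 2 of the 7 (rpt1 and rpnL), as for 29.7% of tested genes. In liquid culture they lay above for 1 (rpt1; 28.2% of tested genes) and below for 2 (pre8 and pre9; 31.5%). None of these counts was above the share of all tested genes. The median log2 fold change of the 7 was 0.22 in solid culture, -0.19 in liquid culture and 0.04 for the mean, beside medians over all tested genes of -0.05, -0.03 and -0.04. The SE of the 7 lay between 0.36 and 0.45 in the single cultures, and their 95% intervals there reached from -1.50 to 1.98.

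**Figure D2:**
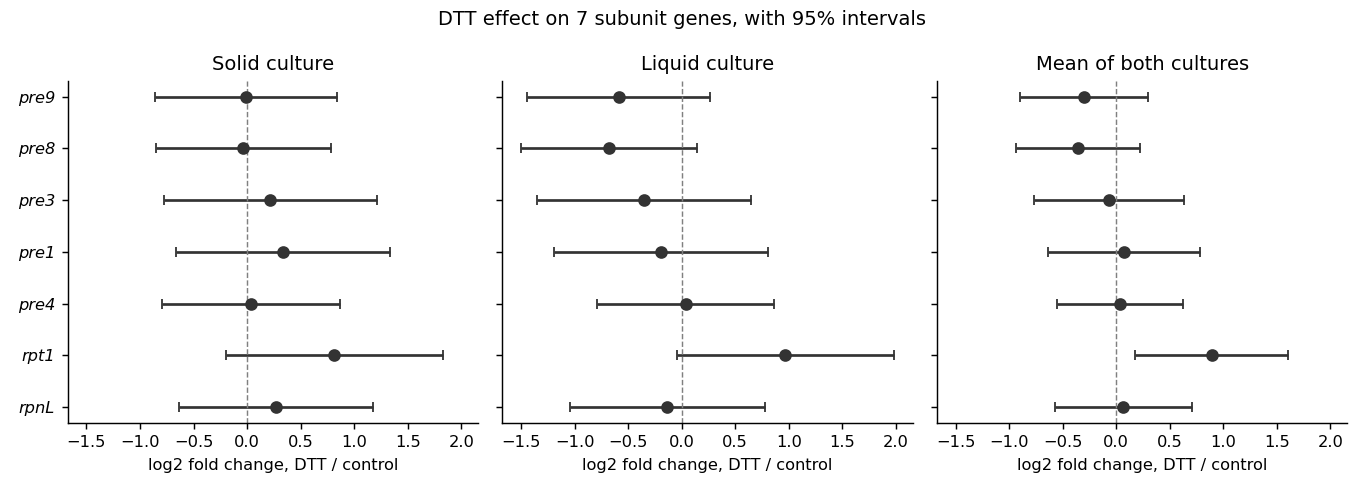
Log2 fold change of DTT over control (horizontal axis) for the 7 genes in solid culture, in liquid culture and for the mean of both, with 95% intervals from edgeR's quasi-likelihood fit. The interval of rpt1 for the mean, from 0.17 to 1.61, is the only one of the 21 that leaves out 0.

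The summed level of the 7 genes was 794 ± 19.1 CPM in the solid control and 968 ± 16.4 CPM in solid DTT. In liquid culture it was 773 ± 76.3 and 780 ± 145 CPM (SD, n = 2 libraries each). The sum in solid DTT was above that of the solid control by more than the spread between libraries, with rpt1 contributing most of the difference, and the liquid sums overlapped.

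Between the cultures, none of the 7 was called without DTT (3.89% of tested genes were), with DTT (2.95%) or for the mean of both treatments (11.9%), by the same test. DESeq2 also called 0 of the 7 in each of these, beside 890, 1142 and 1830 of all 9438 tested genes. Without DTT all 7 lay between -0.15 (pre8) and 0.21 (pre3) on the log2 scale, solid over liquid. With DTT 6 of 7 had values above 0, where 50.7% of all tested genes did, and the highest were pre3 at 0.78 ± 0.44 and pre9 at 0.73 ± 0.38. rpt1 stood at -0.20 ± 0.45. With DTT the solid and liquid libraries did not overlap for 5 of the 7 genes (pre9, pre8, pre3, pre1 and rpnL, all higher in solid culture), beside 28.8% of all tested genes higher there without overlap. Among all 16 proteasome genes the count was 7, also all higher in solid culture. Without DTT pre3 and pre4 were higher in both solid libraries and pre8 in both liquid ones, that is 3 of 7, beside 50.2% of tested genes without overlap in either direction. A surface culture can hold spore-forming structures, and brlA, a regulator of their formation, was at 8.1 to 18.7 CPM in solid and 1.1 to 2.9 CPM in liquid libraries. Of the 5 conidiation genes in the reference, 1 (brlA) was higher in solid culture for the mean of both treatments and 0 were lower (edgeR). The other 4 had values below 0 and the median of the 5 was -0.75. wetA, which acts after brlA, stood at -1.40 ± 0.56 and was lower in solid culture with the replicate block (edgeR, adjusted p = 0.0484), where 21.3% of tested genes were called. Their part in the culture differences was not tested.

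The difference of the DTT effects between the cultures was tested directly, and no gene of all 9438 was called (0%) by edgeR. At an unadjusted p under 0.05 there were 1003 genes, none of them among the 7, and DESeq2 called 211 genes, again 0 of the 7. For 6 of the 7 the value was above 0, that is, the DTT effect was higher in solid culture, where 52.5% of tested genes had such a value. It was 0.64 ± 0.51 for pre8, 0.58 ± 0.53 for pre9 and 0.57 ± 0.62 for pre3. For rpt1 it was -0.16 ± 0.63, with a 95% interval from -1.58 to 1.27, and the effects in both cultures were of the same sign.

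Per kilobase of coding sequence, the level of pre1 was highest in each of the 8 libraries, and its mean was 272 ± 60.1 CPM per kb (SD, n = 8). It was followed by pre3 (142 ± 37.5), rpt1 (140 ± 53.8), pre9 (133 ± 29.1), pre4 (121 ± 10.9), rpnL (119 ± 21.0) and pre8 (99.5 ± 18.2). The ranges of neighbours in this order overlapped except between pre1 and pre3. Of the 7, pre1 had the shortest coding length (612 bp), pre3 the next (684 bp) and rpt1 the longest (1320 bp). Whether length affects the order of levels was not tested. Within a library the highest of the 7 was 1.94 to 3.79 times the lowest. In both control conditions rpt1 had the lowest mean of the 7, at 96.7 ± 15.9 CPM per kb in solid and 99.6 ± 8.70 in liquid culture (SD, n = 2). Under DTT its mean was 170 ± 41.8 in solid culture, below pre1 and pre3 only, and 195 ± 57.9 in liquid culture, below pre1 only. pre8 had the lowest mean in both DTT conditions, at 103 ± 6.94 and 73.1 ± 6.12. Over the 16 genes pre1 also ranked first, 1.57 times pup3, which has the same coding length, and 3.06 times pup1, which was the lowest.

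The ratio of rpt1 to the median of the other 6 genes, per kilobase, was 0.63 and 0.77 in the solid control and 0.66 and 0.87 in the liquid control. With DTT it was 0.91 and 1.47 in solid culture and 1.64 and 1.99 in liquid culture. The 4 DTT libraries lay above the 4 controls, by a narrow margin for solid DTT replicate 1, and in every condition the library with the shorter inserts had the higher ratio. This ratio does not depend on the scaling between libraries. It was formed after the values of rpt1 had been seen, and it was not tested.

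**Figure D3:**
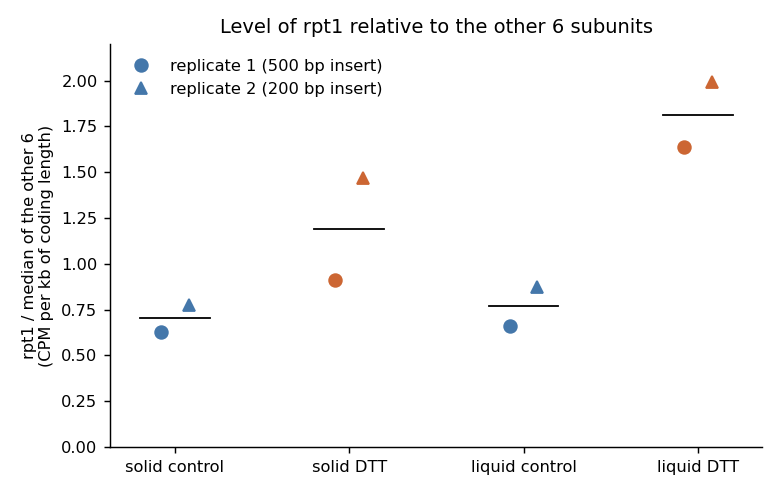
Level of rpt1 divided by the median of the other 6 genes in each library (vertical axis, from 0, both per kb of coding length), with circles for replicate 1 and triangles for replicate 2, controls in blue and DTT in orange, and bars for the mean of 2 libraries. Controls lie between 0.63 and 0.87 and DTT libraries between 0.91 and 1.99.

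Over the 8 libraries, whatever the condition, each of the 7 genes varied less than the median tested gene. The highest library was still 2.95 times the lowest for pre3 and 2.76 times for rpt1. The SD of log2 CPM was 0.13 for pre4, 0.24 for rpnL, 0.28 for pre8, 0.32 for pre1, 0.35 for pre9, 0.45 for pre3 and 0.53 for rpt1. The median over all tested genes was 0.88, and over the 1103 tested genes with a mean level in the range of the 16 proteasome genes it was 0.71. Within that range of levels pre4 lay at percentile 0.227 of the SD and rpt1 at percentile 27.0, so all 7 were in the lower part. The 9 other proteasome genes lay between percentiles 0.68 (pre2) and 12.9 (rpn8). The means of the 4 conditions differed by at most 0.21 on the log2 scale in pre4 and by 0.99 in rpt1, beside a median of 1.39 for tested genes in the same range of levels.

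**Figure D4:**
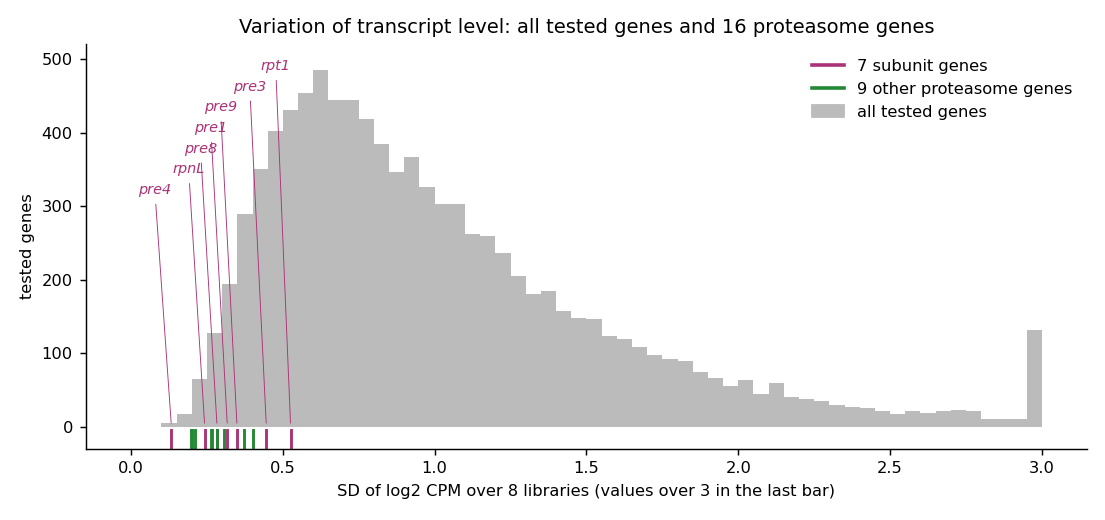
Number of tested genes (vertical axis) by the SD of their log2 CPM over the 8 libraries (horizontal axis), with marks under the axis for the 7 subunit genes, which are labelled, and for the 9 other proteasome genes. All 16 marks lie below the median of 0.88, from 0.13 for pre4 to 0.53 for rpt1.

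The profiles of the 7 over the libraries were related only loosely, and that of rpt1 least. Pearson correlations of log2 CPM over the 8 libraries, which share conditions in pairs, had a median of 0.49 over the 15 pairs without rpt1 (0.03 to 0.77), and were highest between pre1 and rpnL (0.77). The 6 pairs with rpt1 ran from -0.67 (pre8) to 0.18 (pre4). Against the mean profile of the 7, the most similar genes with a symbol outside the proteasome were rhbA (AO090009000713; r = 0.83), sly1 (AO090701000606; 0.83), trm44 (AO090120000142; 0.79), slt11 (AO090011000290; 0.78) and ppmA (AO090023000321; 0.77), over 8 libraries. Only 714 of 12347 RefSeq genes have a symbol. Among all tested genes rhbA ranked 78 and ppmA 178 in likeness to this profile. The 7 themselves ran from r = 0.11 (rpt1, rank 4089) and 0.32 (pre8, rank 2447) to 0.90 (pre3), although each is part of the mean. The highest r outside the proteasome, for a gene without a symbol, was 0.99. Of the 9 other proteasome genes, pup2 (0.83) and pre2 (0.76) were nearest to this profile and rpt3 (0.30) the farthest, and 13.7% of all tested genes outside the complex exceeded 0.5.

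None of the 9 other proteasome genes was called under DTT in solid culture, in liquid culture or for the mean (edgeR without the block). The shares of all tested genes called were 9.3%, 20% and 33.2%. In this fit 0 of 16 genes thus rose or fell. With the replicate block or DESeq2, rpt1 was called for the mean. For the mean of both cultures, the highest were rpn8 (AO090012001005), a lid subunit in yeast, at 0.49 ± 0.30 and pup3 (AO090023000831), a beta subunit without a cutting site of its own, at 0.49 ± 0.26. The lowest were pre6, an alpha subunit, at -0.30 ± 0.31 and pup1 (AO090003000295), the beta subunit with the trypsin-like site, at -0.26 ± 0.29.

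Grouped by place in the complex, the 5 genes of the regulatory particle (rpt1, rpt3, rpt4, rpn8 and rpnL) had a median log2 fold change of 0.44 in solid and 0.41 in liquid culture, with 5 and 4 values above 0. The 11 core genes had medians of 0.04 and -0.19, with 6 and 3 values above 0. This grouping was made after the values were known, its difference was not tested, and 48.2% and 48.8% of all tested genes had values above 0. In addition to rpt1, rpt4 (AO090003000056) and pup3 had all 4 DTT libraries above all 4 controls. That is 3 of 16 genes, beside 12.2% of all tested genes. pup3 stood at 96.0 and 94.3 CPM in the solid control, 128 and 128 CPM in solid DTT, 85.7 and 77.1 CPM in the liquid control and 117 and 122 CPM in liquid DTT. For rpt4 the margin was small, from 145 CPM in the highest control to 148 CPM in the lowest DTT library.

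**Figure D5:**
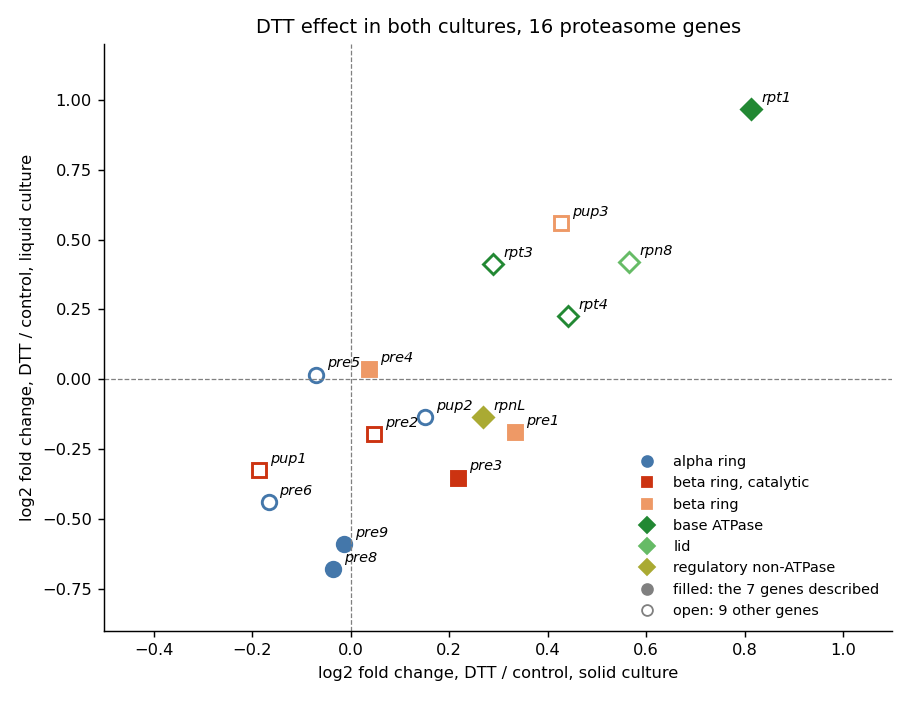
Log2 fold change of DTT over control in solid culture (horizontal axis) and in liquid culture (vertical axis) for 16 proteasome genes, coloured by place in the complex, with the 7 genes described filled and the 9 others open. rpt1 lies farthest up, at 0.81 and 0.97, and pre8 farthest down, at -0.04 and -0.68.

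Genes that act upstream of the proteasome were read from the same fit. Of 9 genes with a symbol of the ubiquitin pathway, 2 rose and 0 fell under DTT in solid culture (9.3% of all tested genes were called in either direction), 1 rose and 1 fell in liquid culture (20%), and 2 rose and 1 fell for the mean (33.2%). The counts in liquid culture and for the mean are thus near the shares of all tested genes. With the replicate block 2 rose and 0 fell in solid culture (20.1% of tested genes called), 3 rose and 1 fell in liquid culture (31.6%), and 5 rose and 1 fell for the mean (44.1%), the last with skpA, culA and cdc48 in addition. The risers for the mean without the block were derA (AO090701000076), a component of ER-associated degradation, at 2.28 ± 0.41 and hrdA (AO090005000658), its ubiquitin ligase, at 2.26 ± 0.32. csn12 (AO090003000871) fell, at -1.27 ± 0.30, and ubaA (AO090012000248) had the next lowest value, -0.17 ± 0.48, and was not called. hrdA stood at 70.8 and 43.7 CPM in the solid control, 345 and 305 CPM in solid DTT, 67.5 and 59.5 CPM in the liquid control and 228 and 286 CPM in liquid DTT. In each culture the DTT libraries of hrdA lay above the controls, and its SE was like that of rpt1 (0.32). The difference in response between these genes and the proteasome genes was not tested.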

How the data were processed

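RNA-seq of 8 libraries gave 2 libraries in each of 4 conditions, grouped by the labels. Per the labels, oligo-dT selected RNA was primed with random primers and read as 44 bp pairs. Per the file headers, the deposited files hold the number of mapped reads per gene, used as raw counts, and the fraction of each gene covered. For the aligner, build, annotation, strand and multiply mapping reads, no detail is given in the sources used here. Genes absent from a file were set to 0 reads. Coding lengths are the common denominators of the coverage fractions (98.8% are multiples of 3). All 11880 locus tags matched RefSeq assembly ASM18445v3, used for symbols and gene order only.

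Genes were kept by filterByExpr (minimum count 10; 9438 of 11880), scaled by TMM (factors 0.73 to 1.25) and fitted in edgeR 4.0.16 (R 4.3.3; glmQLFit, glmQLFTest) with a term for each of 4 conditions (4 residual degrees of freedom, 3 with the block). p-values were Benjamini-Hochberg adjusted over all tested genes. The prior count for log2 CPM was 2. The SE is the log2 fold change over the root of F. The fit was tested on simulated data, with log2 changes of 1, 2, 3 and 4 in solid DTT, 50 genes for each size. It called 6%, 40%, 88% and 100% of these genes in the right direction, and 2 of 9152 unchanged genes. The simulation used the same spread for all genes, not estimated from these data. Most changes near 1 would thus have been missed there. Alternatives were DESeq2 1.42.0, RLE scaling, no filter, no rRNA genes, the conditions compared alone, a replicate block and leaving out each library. Replicate numbers coincide with insert size and with the RNA type in the labels. The titles of the replicate 1 libraries give no number, and 1 was assigned here. Replicate differences correlated between conditions at 0.24 to 0.51, so part of the difference was shared by libraries of the same number. Whether these libraries were also paired by culture or batch cannot be told apart from insert size and RNA type. The main fit leaves this shared difference out, and the fit with the replicate block includes it. Libraries of a condition were not copies of each other (chi-square of their counts over its degrees of freedom, 179.3 to 265.3). At these depths 3 reads are 0.34 to 0.51 CPM.

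The members, lists and rules were chosen with earlier results of these data known. Named were the 7 members, for the mean DTT effect the 2 highest and 2 lowest other proteasome genes, up to 4 genes of the ubiquitin list, and the 5 genes with a symbol most like the members' mean profile. rpt4, pre5, pup2, wetA, skpA, culA and cdc48 were named after their values were seen. Sequences were not used here.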

Additional observations from a re-analysis of the deposited data

How the results depend on the processing

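With 2 libraries per condition, which differ in insert size, the SE of a member's fold change in 1 culture was 0.36 to 0.45 on the log2 scale, at 209 to 2946 reads per gene and library. Other settings called no member except rpt1 for the mean DTT effect. It was called with RLE scaling (0.92), DESeq2 (0.92), the replicate block (0.87) and no rRNA genes (0.94). In the same order, these settings called 3111, 3582, 4162 and 3123 genes in all, of 9438 tested (9426 without rRNA genes). When a library was left out, the value of rpt1 was 0.77 to 1.02. Leaving out the rRNA genes raised the members' mean CPM to 1.24 to 1.31 times the printed level, beyond 1 SD for 25 of 28 values, and RLE scaling gave 0.984 to 1.03 times with 1 of 28 beyond it. The count of all genes called also moved. With DESeq2 it was 1672 for DTT in solid culture, 890 and 1142 for culture without and with DTT, 211 for the difference and 1830 for the mean culture effect. With the replicate block it was 1897, 771, 992, 23 and 2006 in the same order and 2984 for DTT in liquid culture. Without the filter it was 569 and 610 for culture without and with DTT and 26 for the difference, and with the compared conditions alone 902 for DTT in liquid culture and 95 for culture with DTT. Leaving out 1 library gave 6 to 1207 (DTT, solid), 614 to 1581 (DTT, liquid), 67 to 437 and 60 to 322 (culture without and with DTT), 0 to 7 (difference), 1828 to 2986 (mean DTT) and 317 to 950 (mean culture). The cause was not tested.

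Values near 0 changed sign, all uncalled. For DTT in solid culture pre9 became 0.011 (RLE), 0.011 (DESeq2), 0.073 (compared conditions alone) and 0.044 (no rRNA genes), and pre8 0.052 and 0.022 under the last 2. For culture without DTT pre1 became -0.014 (no filter), -0.0050 (replicate block), -0.035 (compared conditions alone) and -0.027 (no rRNA genes), and for the difference pre4 became -0.019 (RLE) and -0.020 (DESeq2). The replicate block changed no other call of a member. Leaving out 1 library gave, for DTT in solid culture, -0.063 to 0.10 (pre9), -0.071 to 0.021 (pre8) and -0.039 to 0.18 (pre4). In liquid culture it gave -0.89 to 0.058 (pre3), -0.41 to 0.070 (pre1), -0.077 to 0.18 (pre4) and -0.40 to 0.19 (rpnL). For culture without DTT it gave -0.089 to 0.38 (pre9), -0.34 to 0.28 (pre1), -0.22 to 0.12 (rpt1) and -0.38 to 0.29 (rpnL), and with DTT -0.48 to 0.11 (rpt1). For the difference it gave -0.15 to 0.17 (pre4) and -0.44 to 0.19 (rpt1). For the mean DTT effect it gave -0.31 to 0.13 (pre3), -0.040 to 0.23 (pre1), -0.0092 to 0.13 (pre4) and -0.064 to 0.23 (rpnL), and for the mean culture effect -0.26 to 0.019 (rpt1) and -0.016 to 0.32 (rpnL).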
